A study of Mus musculus with 36 samples.

Results

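Blood RNA at week 4 was compared with week 0 in Townes sickle cell mice, a humanised strain in which human globin genes stand in place of the mouse ones. The comparison took every library whose title gives week 4 or week 0, 24 of the 36 libraries in the series, 12 at each time. Each time held 4 groups of 3 libraries: a scrambled control RNA at 2 mg/kg, the scrambled control at 3 mg/kg, MIR29B at 2 mg/kg and MIR29B at 3 mg/kg. The title describes MIR29B, a microRNA, as cholesterol-modified. Per the labels, either agent was given by a mini-osmotic pump, peripheral blood was taken at weeks 0, 2 and 4, the cells are labelled erythrocytes, and globin mRNA was depleted before sequencing. Both arms were pooled, with the arm and the dose as terms of the model, so the contrast asks what changed in blood over the 4 weeks whichever RNA was given. No group without pump and RNA was analysed here, so time, the pump, sampling and an effect common to both RNAs cannot be told apart. The labels do not say whether week 0 blood preceded the first dose, whether the weeks share animals, or how old the mice were. The p-values measure the spread between these libraries.

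Circulating red cells in sickle cell disease include many reticulocytes, which still carry RNA for heme synthesis and for the clearance of organelles. White cells and platelets add their own transcripts to a blood library. NF-kappa-B is a transcription factor held in the cytoplasm by inhibitor proteins and released when receptors for microbial products or cytokines are engaged. It switches on cytokines, chemokines and its own inhibitors, and the AP-1 family, built from Fos, Jun and Maf related proteins, answers many of the same signals. In sickle cell disease neutrophils and monocytes are known to be activated.

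Library totals were 17.9 to 41.3 M (mega) counts, with medians of 28.9 M at week 0 and 34.1 M at week 4 (two-sided permutation test, adjusted p = 0.0252). Alas2, the most abundant red cell enzyme transcript followed here, took 6.64% to 11.6% of the counts at week 0 and 9.24% to 13.6% at week 4 (permutation test, adjusted p = 0.0252). Without week 0 2 mg/kg MIR29B replicate 2, the permutation adjusted p was 0.0502 for both. The share of ribosomal RNA, the number of genes with at least 10 counts and an index of transcript length gave adjusted p of 0.901 each. Y-linked transcripts summed to more than 10 CPM in 7 of 12 week 0 and 4 of 12 week 4 libraries. With the Xist level as a term 2 of the 83 named genes that were called lost their call. There were 3 libraries that stood apart. Week 0 2 mg/kg MIR29B replicate 2 had the fewest genes (7411). Week 4 2 mg/kg MIR29B replicate 1 held Xist at 49.48 CPM beside Y-linked transcripts at 4.661 CPM, under the cut of 10 CPM. Week 4 2 mg/kg scrambled replicate 1 had B cell markers summing to 64.5 CPM. Although the cells are labelled erythrocytes, transcripts of neutrophils, B cells and platelets were read in all 24 libraries. Levels below are TMM-scaled CPM (library-size scaled counts), not corrected for transcript length.

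Blood at week 4 differed from week 0 in 1078 of 11633 tested genes, 9.27%. Of these 674 rose (5.79%) and 404 fell (3.47%), by edgeR's quasi-likelihood test at a Benjamini-Hochberg adjusted p under 0.05. The change exceeded 2-fold in 437 genes, 272 up and 165 down, and the median log2 fold change over all tested genes was -0.04. The balance of directions depended on the scaling: with upper quartile scaling 528 rose and 661 fell, and the median over all genes was -0.14. In 37 genes (0.318% of those tested) every week 4 library lay above every week 0 library, and in 5 (0.043%) every one lay below. With the summed level of neutrophil markers as a term, 206 genes were called, 142 up and 64 down. That sum holds genes that themselves rose, such as Il1r2, Trem1 and G0s2. Counts of list members with this term, given below, belong beside these 142 and 64 of 11633 genes. The shares of 5.79% and 3.47% hold for the fit without it.

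The smallest p-value was that of Vps37b, a subunit of the ESCRT-I complex that sorts membrane cargo, at chromosome 5, 124004641 to 124032270 (GRCm38). It lay at 7.07, 15 and 24.3 CPM (lowest, median and highest of 12 libraries) at week 0 and at 36.8, 64.8 and 100 CPM at week 4. Every week 4 library was above every week 0 library. The log2 fold change was 2.19 ± 0.20 (SE), with an edgeR adjusted p of 3.23e-08, and it was 2.13 with the neutrophil term (edgeR adjusted p = 1.63e-05). Next was Slc2a1, the glucose transporter GLUT1, at chromosome 4, 119108711 to 119137983. It lay at 2.36, 5.69 and 11.4 CPM at week 0 and 13.8, 21.5 and 33.5 CPM at week 4, again without overlap (1.93 ± 0.18, edgeR adjusted p = 5.16e-08).

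**Figure D1:**
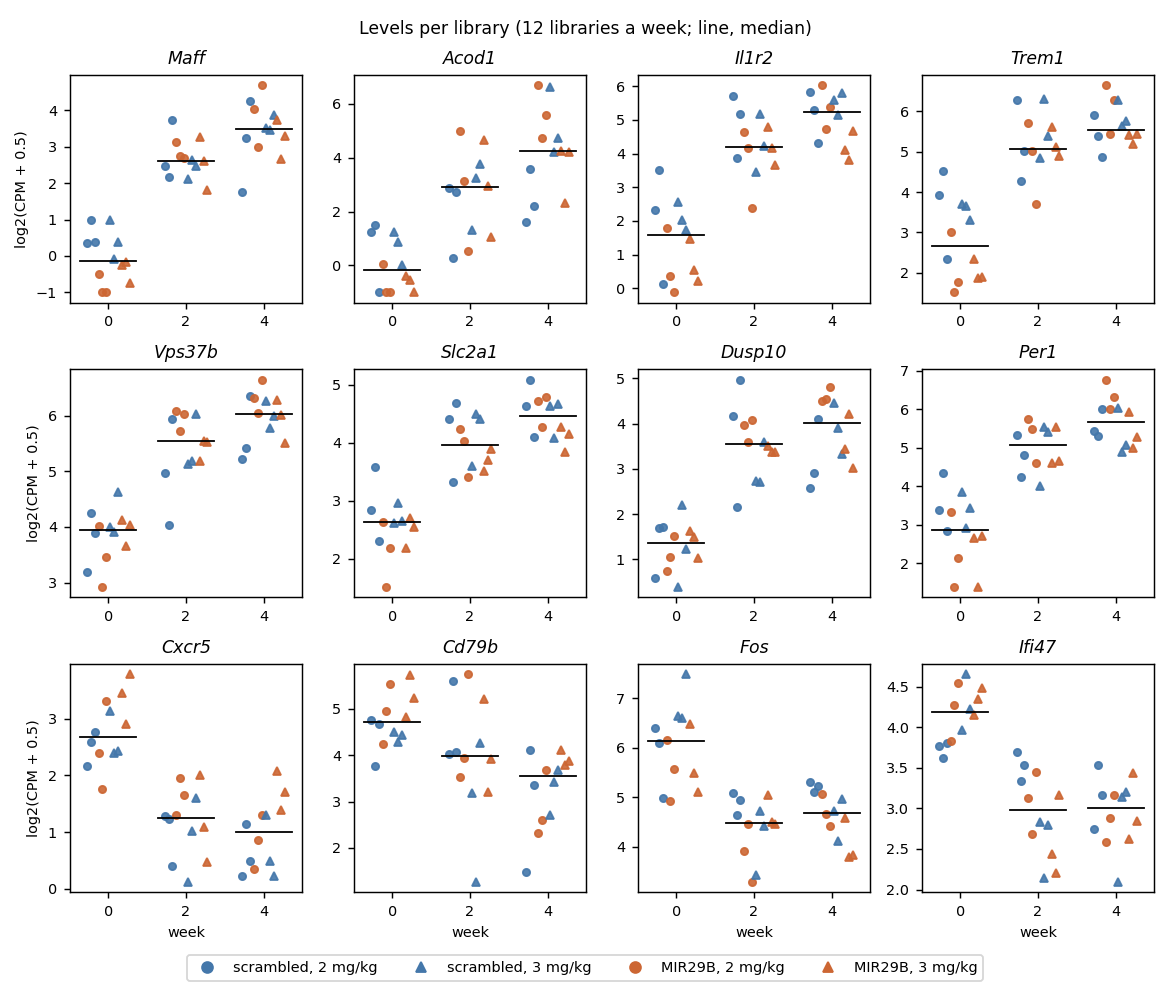
Levels of 12 genes in each library as log2(CPM + 0.5) on the vertical axis, by week on the horizontal axis; colour gives the arm, the marker shape gives the dose, and the line is the median of 12 libraries. Vps37b, for example, lies at 7.07 to 24.3 CPM at week 0 and 36.8 to 100 CPM at week 4, and Ifi47 is lower in all 12 week 4 libraries.

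Most of the NF-kappa-B and inflammatory response genes rose. Of 47 tested members 29 rose, 0 fell and 18 did not pass the test, against 5.79% of all tested genes that rose. Their median log2 fold change was 1.32, against -0.04 over all genes. This list, like the others here, was chosen with earlier results of these data known, so its share is a description. When any 1 library was left out, 27 to 31 rose, and 25 did so without the 3 libraries that stood apart, a choice made after the data were seen. With the neutrophil term 7 rose, with a median of 0.73, where 142 of 11633 genes rose in all.

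Among the enzymes and cytokines of this group Acod1 had the largest change of any gene named here. It makes itaconate in activated macrophages and lies at chromosome 14, 103046977 to 103056573. Its levels were 0, 0.39 and 2.36 CPM at week 0 and 2.57, 18.4 and 104 CPM at week 4. All 12 week 4 libraries were above all 12 at week 0, where 4 libraries had no counts and the 12 together held 182. The log2 fold change was 5.67 ± 0.83 (edgeR adjusted p = 0.00013), and 3.81 with the neutrophil term (edgeR adjusted p = 0.0289). Il1b, the cytokine interleukin-1 beta, went from 11.1, 50.6 and 153 CPM to 57.3, 165 and 296 CPM (1.74 ± 0.35, edgeR adjusted p = 0.00153). Its ranges overlapped, with 7 of 12 week 4 libraries above the highest at week 0. Cxcl2, a chemokine that draws neutrophils, had a log2 fold change of 2.62 ± 0.49 and Tnf, another inflammatory cytokine, one of 2.06 ± 0.46 (edgeR adjusted p of 0.00107 and 0.00414). Il1b, Cxcl2 and Tnf were named after their values were seen, and none of these 3 passed with the neutrophil term (edgeR adjusted p of 0.561, 0.355 and 0.356).

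Receptors of the group rose as well. Il1r2, a decoy receptor that binds interleukin-1 without signalling and is also counted among the neutrophil markers, lies at chromosome 1, 40074079 to 40125231. It rose from 0.419, 2.54 and 10.9 CPM to 13.5, 36.9 and 65.3 CPM, with no overlap. Its log2 fold change was 3.79 ± 0.39 (edgeR adjusted p = 3.78e-07) and 2.53 with the neutrophil term. Plaur, the urokinase receptor of activated leukocytes, rose from 3.26, 7.5 and 21.6 CPM to 24.2, 37.4 and 53.7 CPM, also with no overlap (2.18 ± 0.22, edgeR adjusted p = 1.12e-07). Tlr2, a receptor for bacterial lipoproteins named after its values were seen, had 11 of 12 week 4 libraries above the week 0 maximum of 14.2 CPM (2.40 ± 0.34, edgeR adjusted p = 2.26e-05).

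Inhibitors of the pathway rose alongside. Zc3h12a, a ribonuclease that degrades cytokine mRNA, rose from 2.11, 3.66 and 7.16 CPM to 6.51, 15.7 and 37.7 CPM, and 11 of 12 week 4 libraries were above the highest at week 0 (2.19 ± 0.26, edgeR adjusted p = 1.5e-06). Tnfaip3, the ubiquitin-editing inhibitor A20, rose from a median of 23.8 to 65.1 CPM, with 9 of 12 week 4 libraries above the week 0 maximum of 58.5 CPM (1.65 ± 0.30, edgeR adjusted p = 0.000525). Nfkbia, the inhibitor I-kappa-B alpha, named after its values were seen, had a wide range at both times. It lay at 15.8, 25.1 and 107 CPM at week 0 and 25.1, 106 and 150 CPM at week 4, so that 6 of 12 week 4 libraries were above the week 0 maximum (1.66 ± 0.28, edgeR adjusted p = 0.000232). With the neutrophil term Nfkbia and Tnfaip3 had log2 fold changes of 0.88 and 1.43 that did not pass (edgeR adjusted p of 0.23 and 0.0794).

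Promoter sequence was read for this group because its members moved together. The RefSeq promoter table (GRCm38.p6) matched 9313 of the 11633 tested genes by symbol, and the first window listed for each gene was searched over the 250 bases before the RefSeq start, on both strands. RefSeq starts can differ from the GENCODE gene bounds given here, which span all transcripts of a gene. A kappa-B motif, searched as GGGANNTTCC or GGGGNNTTCC, was present in 12 of 37 matched members (32.4%), in 7 of the 24 matched members that rose (29.2%), in 2.79% of the matched tested genes and in 2.46% of the 32851 windows of the table. Among all genes that rose 3.97% held it, and among all that fell 3.73%. An AP-1 motif, TGANTCA, stood in 9 of the 37 members (24.3%), in 4.33% of the matched tested genes and in 6.75% of all windows. These are matches of letters in a window and not measured binding. The list was chosen as NF-kappa-B genes, so its higher kappa-B share cannot be read as a result of the week 4 change. Members that rose held the motif no more often than all matched members. The windows of 4 members that rose are shown, with matches to kappa-B, AP-1 and the E-box CACGTG in capitals.
Nfkbia, chr12:55492648-55492897, minus strand: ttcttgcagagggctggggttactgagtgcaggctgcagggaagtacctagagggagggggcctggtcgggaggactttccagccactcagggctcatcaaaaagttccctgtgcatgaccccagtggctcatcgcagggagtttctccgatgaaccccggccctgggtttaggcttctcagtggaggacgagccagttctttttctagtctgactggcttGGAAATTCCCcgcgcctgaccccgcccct
Cxcl2, chr5:90903649-90903898, plus strand: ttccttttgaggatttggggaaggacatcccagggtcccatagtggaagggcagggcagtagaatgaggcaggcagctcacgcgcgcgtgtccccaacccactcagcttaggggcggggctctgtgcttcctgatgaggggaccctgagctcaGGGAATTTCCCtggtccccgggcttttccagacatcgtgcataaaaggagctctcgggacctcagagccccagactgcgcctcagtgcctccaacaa
Tlr2, chr3:83841609-83841858, minus strand: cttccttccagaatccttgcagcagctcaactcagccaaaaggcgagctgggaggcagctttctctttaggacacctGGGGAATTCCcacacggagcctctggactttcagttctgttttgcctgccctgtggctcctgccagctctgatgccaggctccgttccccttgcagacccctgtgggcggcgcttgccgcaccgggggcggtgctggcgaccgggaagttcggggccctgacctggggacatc
Tnfaip3, chr10:19015411-19015660, minus strand: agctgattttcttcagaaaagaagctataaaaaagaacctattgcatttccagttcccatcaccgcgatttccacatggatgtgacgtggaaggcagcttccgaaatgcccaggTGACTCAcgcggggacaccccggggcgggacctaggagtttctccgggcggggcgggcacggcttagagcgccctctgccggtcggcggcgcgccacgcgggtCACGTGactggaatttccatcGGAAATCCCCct
In Cxcl2 the capitals cover 2 kappa-B matches that overlap, and in Tnfaip3 they are, in order, an AP-1 match, an E-box and a kappa-B match. The windows of Tlr2, Tnfaip3 and Cxcl2 overlap the GENCODE bounds of their genes, and Tnfaip3 has a further window in the table that was not searched.

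The AP-1 and immediate early genes split. Of 31 tested members 15 rose and 2 fell, against 5.79% and 3.47% of all tested genes. The median log2 fold change was 0.52, and with the neutrophil term 9 rose and 2 fell. Maff, a small Maf protein that pairs with other leucine zipper factors and is also counted among the NRF2 genes, lies at chromosome 15, 79346621 to 79359076. It rose from 0, 0.413 and 1.48 CPM to 2.86, 10.7 and 25.4 CPM, with no overlap (4.48 ± 0.42, edgeR adjusted p = 1.12e-07). Csrnp1, a nuclear protein of the cysteine-serine-rich family, and Rgs1, which limits signalling by chemokine receptors, rose by 2.00 ± 0.23 and 1.90 ± 0.22 on the log2 scale (edgeR adjusted p of 6.54e-07 and 4.58e-07). For Rgs1 all 12 week 4 libraries, at 11 to 26.5 CPM, were above all week 0 libraries, at 1.44 to 10.9 CPM.

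The 2 members that fell were Fos and Egr1. Fos, the founding AP-1 subunit, at chromosome 12, 85473890 to 85477273, went from 30.1, 69.8 and 179 CPM to 13.4, 25.3 and 39 CPM. In 7 of 12 week 4 libraries it was below every week 0 library. The log2 fold change was -1.45 ± 0.24 (edgeR adjusted p = 0.000135) and -1.82 with the neutrophil term. Egr1, a zinc finger factor induced by growth signals, had a log2 fold change of -0.70 ± 0.21 (edgeR adjusted p = 0.0298) and did not pass in 6 of 24 fits made without 1 library each. Dusp10, a phosphatase that switches off p38 and JNK kinases, is outside the list. It rose from 0.806, 2.06 and 4.1 CPM to 5.42, 15.6 and 27.4 CPM, with no overlap (2.84 ± 0.28, edgeR adjusted p = 1.12e-07).

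Markers of myeloid cells lay higher at week 4. Of 25 tested neutrophil markers 7 rose and 0 fell, against 5.79% of all tested genes that rose, and 24 had a log2 fold change above 0, with a median of 0.86. The count that rose was 11 with DESeq2 and 7 to 15 when any 1 library was left out, the highest without week 0 3 mg/kg scrambled replicate 3. Leaving out week 4 2 mg/kg scrambled replicate 3 also moved it by more than 1.5 times. Trem1, a receptor that amplifies inflammatory signals, at chromosome 17, 48232768 to 48246924, rose from 2.36, 6.05 and 22.6 CPM to 28.7, 46 and 100 CPM. Its ranges did not overlap (2.92 ± 0.30, edgeR adjusted p = 2.44e-07). G0s2, an inhibitor of fat breakdown, rose from 0.764, 2.63 and 11 CPM to 7.99, 23.7 and 72.6 CPM, with 11 of 12 week 4 libraries above the week 0 maximum (2.92 ± 0.40, edgeR adjusted p = 2.77e-05). S100a9 and S100a8, the calprotectin subunits that fill the neutrophil cytoplasm, were named after their values were seen. They rose by 1.14 ± 0.26 and 1.05 ± 0.28 on the log2 scale (edgeR adjusted p of 0.00458 and 0.0148). Elane and Mpo, granule enzymes of neutrophil precursors, had too few counts to be tested.

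The summed neutrophil markers were 247, 558 and 1430 CPM at week 0 and 569, 1210 and 1960 CPM at week 4, overlapping. In bulk blood more cells of a type and more RNA per cell cannot be told apart. With the summed level as a term, S100a8 had a log2 fold change of -0.02 and S100a9 of 0.04. S100a8 and S100a9 are themselves part of that sum, so these values near 0 cannot be read as a result. Trem1 and G0s2, also part of that sum, had values of 2.02 and 1.77 that passed the test (edgeR adjusted p of 0.000474 and 0.0232).

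Of 22 tested monocyte and macrophage markers 9 rose and 0 fell, against 5.79% of all tested genes, with a median of 0.63, and 2 rose with the neutrophil term. Cd14, the co-receptor for lipopolysaccharide, rose from 6.87, 23.1 and 62.1 CPM to 54.1, 196 and 337 CPM, with 11 of 12 week 4 libraries above the week 0 maximum (2.78 ± 0.35, edgeR adjusted p = 3.15e-06). Nr4a1, an orphan nuclear receptor needed by patrolling monocytes and also an immediate early gene, and Adgre4, an adhesion receptor of monocytes and macrophages, rose by 1.29 ± 0.22 and 1.03 ± 0.19 on the log2 scale (edgeR adjusted p of 0.000194 and 0.000396). Of 14 tested eosinophil and basophil markers 4 rose and 0 fell, against 5.79% of all tested genes. Leaving out 1 library gave 2 to 4 that rose, and 0 rose with the neutrophil term. The 4 were Ear1, Ear2, Hdc and Siglecf, and Ear2, a ribonuclease of eosinophils, did not pass in 14 of 24 fits without 1 library. Hdc, which makes histamine, went from 3.07, 9.33 and 21.7 CPM to 9.82, 29.1 and 76.2 CPM (1.66 ± 0.33, edgeR adjusted p = 0.00138). The eosinophil granule genes Epx and Prg3 had too few counts to be tested.

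**Figure D2:**
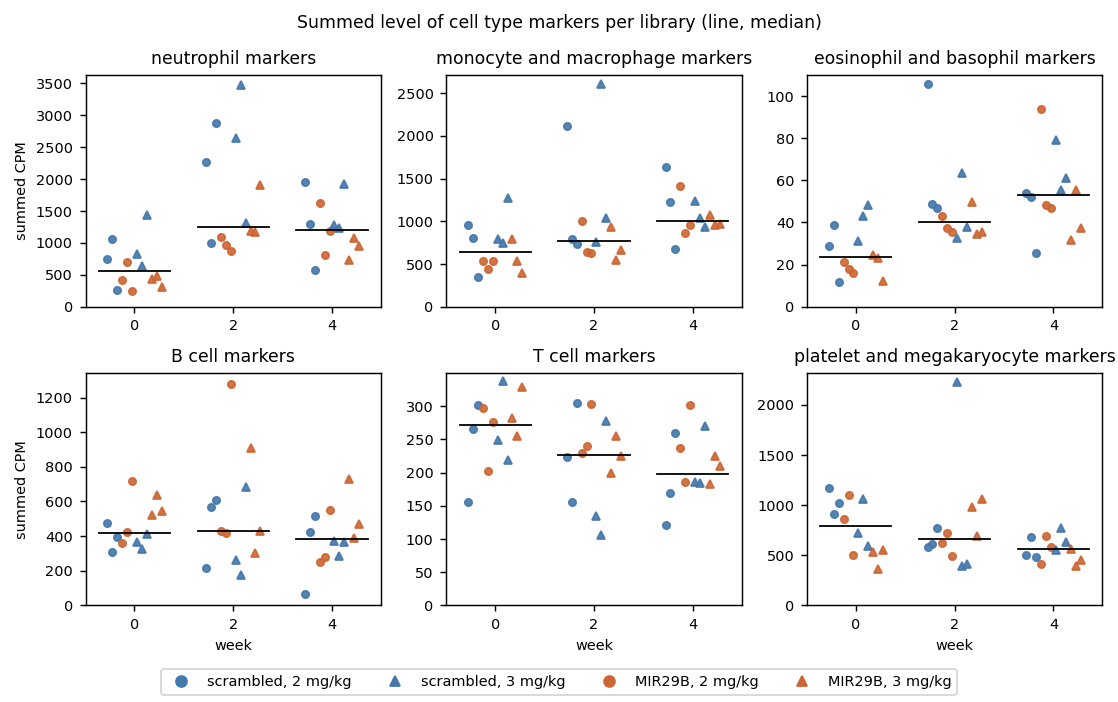
Summed CPM of 6 sets of cell type markers in each library on the vertical axis, by week on the horizontal axis; colour gives the arm, marker shape the dose, and the line is the median of 12 libraries. The median of the neutrophil sum is 558 CPM at week 0 and 1210 CPM at week 4, and that of the platelet sum 790 and 559 CPM.

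Lymphocyte markers fell in part. Of 19 tested B cell markers 0 rose and 6 fell, against 3.47% of all tested genes that fell, and the median was -0.61. Cxcr5, the receptor that takes B cells to follicles, named after its values were seen, is at chromosome 9, 44511787 to 44561877. It went from 2.88, 5.91 and 13.3 CPM to 0.666, 1.52 and 3.73 CPM, and 11 of 12 week 4 libraries were below every week 0 library (-2.10 ± 0.24, edgeR adjusted p = 4.58e-07). Cd79b, a signalling chain of the B cell receptor, went from 13.1, 25.8 and 52.6 CPM to 2.28, 11.3 and 16.9 CPM (-1.43 ± 0.25, edgeR adjusted p = 0.000286). Cr2, the complement receptor of B cells, and Bank1, a B cell scaffold protein, had log2 fold changes of -1.32 ± 0.26 and -0.91 ± 0.22 (edgeR adjusted p of 0.00103 and 0.00607). The partner chain Cd79a, named after its values were seen, had medians of 48.3 and 50.3 CPM and did not pass (-0.29 ± 0.27, edgeR adjusted p = 0.565). With the neutrophil term the list's median was -0.03 and 1 member fell, and Cxcr5 had a value of -1.62 (edgeR adjusted p = 0.00241).

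Of 23 tested T cell markers 0 rose and 4 fell, against 3.47% of all tested genes that fell, with a median of -0.25. The neutrophil term gave 0 that fell and a median of -0.07. Those that fell without it were Cd8a and Cd8b1, the chains of the CD8 co-receptor (-0.67 ± 0.17 and -0.70 ± 0.18), Ccr7, which homes T cells to lymph nodes (-0.59 ± 0.17), and Cd27. The edgeR adjusted p of the first 3 were 0.0109, 0.0126 and 0.0234. Among 20 tested NK cell markers 2 rose and 0 fell, against 5.79% of all tested genes that rose. Their median was -0.08, and with the neutrophil term 0 rose in place of 2. One was Il2rb, the interleukin-2 receptor beta chain (0.72 ± 0.22, edgeR adjusted p = 0.0335, lost in 8 of 24 fits without 1 library), and the other Fasl. Of 22 tested platelet and megakaryocyte markers 1 rose and 6 fell, against 5.79% and 3.47% of all tested genes, with a median of -0.45. Leaving out 1 library gave 1 to 9 that fell, and 1 fell without the 3 libraries that stood apart and 0 with the neutrophil term. The list's median with that term was -0.51, so the calls were lost without a smaller median change. Nrgn, a calmodulin-binding protein found in platelets, went from 78.4, 154 and 311 CPM to 56.3, 92.1 and 158 CPM (-0.83 ± 0.20, edgeR adjusted p = 0.00798). Pf4 and Ppbp, chemokines of platelet granules, had values of -0.89 ± 0.27 and -0.65 ± 0.19 (edgeR adjusted p of 0.0318 and 0.0254), lost in 9 of 24 and 3 of 24 such fits. The member that rose was Thbs1, thrombospondin (0.81 ± 0.23, edgeR adjusted p = 0.0232). It did not pass with the Xist term (edgeR adjusted p = 0.0593), with the neutrophil term (edgeR adjusted p = 0.338) or without the 3 libraries that stood apart.

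**Figure D3:**
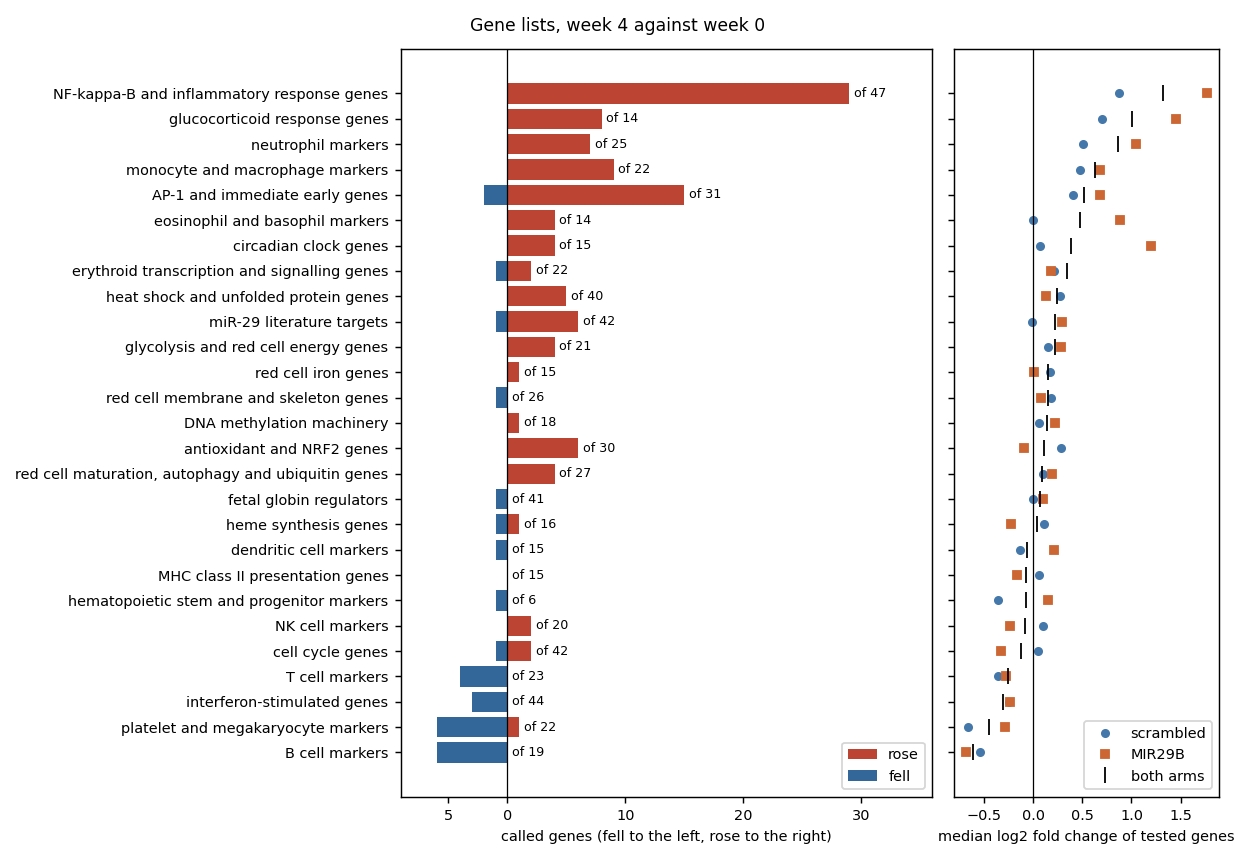
Called genes of each list at week 4 against week 0 (left, fell to the left of 0 and rose to the right, with the number tested) and the median log2 fold change of the tested members (right) over both arms and in each arm. The NF-kappa-B list has 29 of 47 members that rose and the B cell list 6 of 19 that fell.

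Of 44 tested interferon-stimulated genes 0 rose and 3 fell, against 3.47% of all tested genes that fell, with a median of -0.30, and 6 fell with upper quartile scaling. Leaving out 1 library gave 1 to 4 that fell, and 0 fell with the neutrophil term, where the median was -0.36. Rsad2, the antiviral enzyme viperin, went from 8080, 13900 and 22200 CPM to 6560, 8620 and 13500 CPM (-0.57 ± 0.18, edgeR adjusted p = 0.0441), a call lost in 17 of 24 fits without 1 library. The others that fell were Gbp3 and Ifit1bl1.

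Further falls were named by the size or the p-value of the change, with Ifi47 and Ifi209 outside the interferon list. Ifi47, an interferon-inducible GTPase at chromosome 11, 49076587 to 49096974, lay at 11.8, 17.8 and 24.7 CPM at week 0 and 3.78, 7.58 and 11.1 CPM at week 4. Every week 4 library was below every week 0 library (-1.22 ± 0.17, edgeR adjusted p = 1.68e-05), and the value was -1.11 with the neutrophil term (edgeR adjusted p = 0.00929). Ifi209, of the p200 family whose members resemble each other in sequence, went from 5.99, 12.7 and 22.9 CPM to 0.952, 4.2 and 8.45 CPM (-1.53 ± 0.24, edgeR adjusted p = 6.37e-05), and with the neutrophil term had -1.01 (edgeR adjusted p = 0.0526). How shared reads were counted is not given in the sources used here, so this value is uncertain.

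Also named by that rule were AI467606 (-1.15 ± 0.17), Il16, a cytokine precursor of lymphocytes (-1.04 ± 0.17), Zfp217, a zinc finger protein (-1.24 ± 0.22), and Filip1l (-1.47 ± 0.25). Their edgeR adjusted p were 2.65e-05, 0.000121, 0.000298 and 0.000231. Rn7s1 and Rn7s2, copies of the 7SL RNA of the signal recognition particle, carried identical counts. They lay at 44.3 to 169 CPM at week 0 and 17.1 to 42.1 CPM at week 4 without overlap (-1.35 ± 0.22, edgeR adjusted p = 0.000135), and which copy gave the reads is uncertain. Sting1, the adaptor of cytosolic DNA sensing, named after its values were seen, also lay lower in every week 4 library (-0.99 ± 0.16, edgeR adjusted p = 0.000166).

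Clock and glucocorticoid response genes were gathered into lists after the data were seen and are given as a description. Of 15 tested clock genes 4 rose and 0 fell, against 5.79% of all tested genes that rose. Those that rose were Per1, Nr1d2, Nfil3 and Bhlhe40. The neutrophil term left 2 that rose. Per1, a repressor in the clock loop that glucocorticoids also induce, at chromosome 11, 69095217 to 69109960, rose from 2.1, 6.81 and 19.7 CPM to 29.4, 51.4 and 109 CPM. No libraries overlapped (2.81 ± 0.30, edgeR adjusted p = 2.58e-07), and the value was 2.44 with the neutrophil term. Bhlhe40, another clock repressor named after its values were seen, rose from 1.34, 4.12 and 6.42 CPM to 6.62, 18.1 and 34.7 CPM, also with no overlap (2.24 ± 0.27, edgeR adjusted p = 1.85e-06). The core activators Arntl and Clock did not pass, with log2 fold changes of 0.00 ± 0.31 and -0.14 ± 0.23 (edgeR adjusted p of 0.995 and 0.776). The labels used here give no time of day for blood collection.

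Of 14 tested glucocorticoid response genes 8 rose and 0 fell, against 5.79% of all tested genes, with a median of 1.01, and 3 rose with the neutrophil term. Klf9, a zinc finger factor induced by the glucocorticoid receptor and named after its values were seen, had low levels of 0, 0.684 and 1.81 CPM at week 0 and 1.17, 3.46 and 6.76 CPM at week 4 (2.18 ± 0.39, edgeR adjusted p = 0.000455). It did not pass with the neutrophil term (edgeR adjusted p = 0.0849). In 9 of 12 week 4 libraries it was above every week 0 library. The first of the 2 RefSeq windows of Per1 is shown for its E-box (CACGTG, in capitals), the element that clock activators are known to bind. It lies inside the GENCODE bounds of the gene.
Per1, chr11:69098699-69098948, plus strand: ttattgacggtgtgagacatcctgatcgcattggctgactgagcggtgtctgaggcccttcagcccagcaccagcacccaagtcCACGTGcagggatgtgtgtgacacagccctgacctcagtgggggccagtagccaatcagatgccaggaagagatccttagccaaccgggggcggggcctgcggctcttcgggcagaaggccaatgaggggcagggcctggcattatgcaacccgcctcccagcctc
The E-box letters were in 5 of 13 matched clock genes (38.5%), in 8.73% of the matched tested genes and in 6.02% of all windows. The clock list was chosen by function and after the data were seen, so this share is only a description.

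Genes of energy use and stress rose in part. Of 21 tested glycolysis and red cell energy genes 4 rose and 0 fell, against 5.79% of all tested genes, with a median of 0.22. Beside Slc2a1 and Gpi1 these were Pkm, the pyruvate kinase of white cells, from 45, 74.2 and 114 CPM to 92, 110 and 149 CPM, and Ldha, which makes lactate, from 26.9, 31.4 and 65.8 CPM to 41.5, 52.9 and 74 CPM. Their log2 fold changes were 0.63 ± 0.16 and 0.61 ± 0.16 (edgeR adjusted p of 0.00912 and 0.0108), and neither passed with the neutrophil term (edgeR adjusted p of 0.466 and 0.563). Slc2a1 did, at 1.61 (edgeR adjusted p = 0.000232).

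Of 30 tested antioxidant and NRF2 genes 6 rose and 0 fell, against 5.79% of all tested genes, with a median of 0.11, and 2 rose with the neutrophil term. Beside Maff they included Mafk, its paralogue (0.80 ± 0.19), Txnrd1, a thioredoxin reductase (0.88 ± 0.24), and Slc7a11, a cystine transporter named after its values were seen (2.13 ± 0.45). The edgeR adjusted p were 0.00789, 0.0165 and 0.00271, and 0.0195, 0.485 and 0.384 with the neutrophil term. Of 40 tested heat shock and unfolded protein genes 5 rose and 0 fell, against 5.79% of all tested genes. Upper quartile scaling gave 3 that rose, leaving out 1 library 3 to 7 and the neutrophil term 2. The list's median was 0.24, and 0.32 with the neutrophil term. Herpud1, which helps clear proteins from the endoplasmic reticulum, lay at 6.53 to 13 CPM at week 0 and 13 to 23 CPM at week 4, each week 4 library above each week 0 library before rounding (0.82 ± 0.14, edgeR adjusted p = 0.000168). Hspa5, the chaperone BiP of the same compartment, went from a median of 49.4 to 85.4 CPM (0.70 ± 0.15, edgeR adjusted p = 0.00328). Of 42 tested cell cycle genes 2 rose and 1 fell, shares near the 5.79% and 3.47% of all tested genes. Cdkn1a and E2f2 rose and Ccnd2, cyclin D2, fell (-0.83 ± 0.21, edgeR adjusted p = 0.0107). Cdkn1a, the cell cycle inhibitor p21, went from 1.34, 3.62 and 7.41 CPM to 7.99, 13.3 and 19.1 CPM with no overlap (1.75 ± 0.23, edgeR adjusted p = 6.13e-06).

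Alas2, which starts heme synthesis in erythroid cells, at chromosome X, 150547375 to 150570638, lay at 58900, 93800 and 116000 CPM at week 0 and 94500, 127000 and 149000 CPM at week 4. In 7 of 12 week 4 libraries it was above the week 0 maximum. The log2 fold change was 0.46 ± 0.15 (edgeR adjusted p = 0.0489), and it did not pass in 19 of 24 fits made without 1 library each, where the value ran from 0.41 to 0.51. It was also lost with upper quartile scaling (0.36, edgeR adjusted p = 0.192). Of 16 tested heme synthesis genes 1 rose, which was Alas2. The list's median was 0.04, and 0 rose with upper quartile scaling. The share that rose is near the 5.79% of all tested genes.

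Of 26 tested red cell membrane and skeleton genes 0 rose and 1 fell, a share that fell near the 3.47% of all tested genes. The member that fell was Epb42, band 4.2 of the membrane skeleton, which went from 200, 570 and 833 CPM to 149, 357 and 475 CPM (-0.70 ± 0.20, edgeR adjusted p = 0.0215). Of 27 tested maturation, autophagy and ubiquitin genes 4 rose and 0 fell, against 5.79% of all tested genes. Upper quartile scaling gave 1 that rose, leaving out 1 library 1 to 4 and the neutrophil term 1. The list's median was 0.09, and 0.21 with the neutrophil term. Ube2o, a ubiquitin ligase that clears ribosomes from reticulocytes, went from 3160, 3860 and 8820 CPM to 5610, 7320 and 10100 CPM (0.84 ± 0.18, edgeR adjusted p = 0.00215), and was at 1.23 with the neutrophil term (edgeR adjusted p = 0.00176). Ubb, a ubiquitin gene, had medians of 36000 and 52200 CPM (0.55 ± 0.16, edgeR adjusted p = 0.0298, lost in 7 of 24 fits without 1 library). Ulk1, a kinase that starts autophagy, had a value of 0.58 ± 0.17 (edgeR adjusted p = 0.0298, lost in 6 of 24).

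Of 22 tested erythroid transcription and signalling genes 2 rose and 1 fell, against 5.79% and 3.47% of all tested genes. The list's median was 0.35, and with upper quartile scaling 0 rose. The member that fell was Bcl11a, described below. E2f2, which acts in the last divisions of red cell precursors, and Klf3, a repressor related to Klf1, had values of 0.65 ± 0.21 and 0.48 ± 0.14 (edgeR adjusted p of 0.0426 and 0.0318), lost in 18 of 24 and 10 of 24 fits without 1 library. Of 15 tested red cell iron genes 1 rose and 0 fell, near the 5.79% of all tested genes that rose, and with upper quartile scaling 0 rose and 2 fell. The member that rose was Pcbp2, an iron chaperone (0.61 ± 0.18, edgeR adjusted p = 0.0279, lost in 6 of 24).

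Dnmt3a, the DNA methyltransferase named in the series title, did not pass the test over both arms. MIR29B is given here as its mouse mature form from RefSeq (GRCm38.p6), encoded at chr1:195037091-195037113 on the plus strand and chr6:31063025-31063047 on the minus strand, since the sequence of the administered RNA is not given in the sources used here. Its seed, bases 2 to 8, is in capitals.
mmu-miR-29b-3p: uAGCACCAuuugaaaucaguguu
Dnmt3a, at chromosome 12, 3806007 to 3914443, lay at 0.262, 2.37 and 4.55 CPM at week 0 and 0.902, 2.29 and 4.97 CPM at week 4. The ranges overlapped almost wholly, and the log2 fold change was 0.09 ± 0.31 (edgeR adjusted p = 0.905). Fitted by arm, Dnmt3a had values of -0.42 ± 0.42 in the scrambled arm and 0.59 ± 0.42 in the MIR29B arm. That difference between the arms did not pass (edgeR adjusted p = 0.615). Dnmt1, the maintenance enzyme, and Dnmt3b, the other de novo enzyme, had values of 0.16 ± 0.20 and 0.59 ± 0.61 (edgeR adjusted p of 0.684 and 0.608). The demethylases Tet2 and Tet3 had values of 0.35 ± 0.29 and 0.14 ± 0.19 (edgeR adjusted p of 0.512 and 0.717). Of 18 tested genes of the methylation machinery 1 rose and 0 fell, a share near the 5.79% of all tested genes that rose. The member that rose was Gadd45b, a stress gene also induced by NF-kappa-B, which went from 0.524, 2.86 and 23 CPM to 4.91, 18.5 and 34.3 CPM, with 4 of 12 week 4 libraries above the week 0 maximum (2.19 ± 0.47, edgeR adjusted p = 0.00406). It did not pass with the neutrophil term (edgeR adjusted p = 0.421).

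Of 42 tested miR-29 targets from the literature 6 rose and 1 fell, against 5.79% and 3.47% of all tested genes, with a median of 0.22. Fitted by arm, the median was -0.01 in the scrambled arm and 0.29 in the MIR29B arm, and 0 members differed between the arms. The scrambled arm alone gave 0 that rose and 1 that fell, against 0.687% and 0.253% of all genes tested there. The MIR29B arm alone gave 4 and 0, against 3.3% and 0.862%. The neutrophil term gave 2 that rose and 0 that fell, with a median of 0.02. Bbc3, the cell death protein PUMA, and Akt2, a kinase of insulin signalling, rose by 0.88 ± 0.17 and 0.80 ± 0.18 on the log2 scale (edgeR adjusted p of 0.001 and 0.00421). Vegfa, a vascular growth factor named after its values were seen, had a value of 1.58 ± 0.38 (edgeR adjusted p = 0.0065, and 0.468 with the neutrophil term). The other 3 that rose were Tnfaip3, Hdac4 and Insig1, and the member that fell was Ccnd2, which did not pass with the neutrophil term (edgeR adjusted p = 0.305).

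Of 41 tested fetal globin regulators 0 rose and 1 fell, against 3.47% of all tested genes that fell. Bcl11a, a repressor of fetal globin genes that B cells also express, at chromosome 11, 24078056 to 24174123, went from 1.52, 3.29 and 6.56 CPM to 0.333, 1.32 and 4.55 CPM. In 8 of 12 week 4 libraries it was below every week 0 library, though the ranges overlapped (-1.24 ± 0.29, edgeR adjusted p = 0.00525). The summed B cell markers lay at 310, 420 and 718 CPM at week 0 and 64.5, 382 and 728 CPM at week 4, and their part in this value was not tested. With the neutrophil term Bcl11a had a value of -0.69 (edgeR adjusted p = 0.388). The transcription factors Myb, Klf1, Gata1 and Zbtb7a had values of -0.34 ± 0.41, 0.43 ± 0.24, 0.37 ± 0.18 and 0.44 ± 0.25 (edgeR adjusted p of 0.663, 0.298, 0.216 and 0.298). Myb, needed by early red cell precursors, lay at most at 1.12 CPM at week 0 and 0.834 CPM at week 4.

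Genes called in either arm alone mostly had the same direction in the other arm, and the arms share no library. In the scrambled arm alone edgeR called 76 rises (0.687% of 11058 genes) and 28 falls (0.253%), and in the MIR29B arm alone 364 rises (3.3% of 11016) and 95 falls (0.862%). Of the 76 that rose in the scrambled arm, 75 had a fold change in the same direction in the MIR29B arm (98.7%, against 48% of all genes), and 63 were called there too. Of the 28 that fell, 28 did so in direction (against 52% of all genes), 9 of them called. In reverse, 352 of 363 genes that rose in the MIR29B arm (97%) and 89 of 94 that fell (94.7%) had the same direction in the scrambled arm. The 364 rises had a median log2 fold change of 1.58 in the arm where they were selected and 0.76 in the other, where 63 were called. Of the NF-kappa-B and inflammatory genes 4 rose in the scrambled arm alone and 26 in the MIR29B arm alone. Itprip, a protein that binds the inositol trisphosphate receptor, had fitted values of 0.19 in the scrambled arm and 1.73 in the MIR29B arm.

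No gene passed the test of a difference between the arms or the doses. Fitted in 1 model, Maff had log2 fold changes of 3.50 in the scrambled arm and 5.91 in the MIR29B arm, Trem1 of 2.06 and 3.80, and Ets2, an ETS transcription factor, of 2.18 and 4.03. The edgeR adjusted p of these differences were 0.567, 0.567 and 0.567. At week 0 Trem1 lay at 2.36 to 7.54 CPM in the 6 MIR29B libraries and at 4.55 to 22.6 CPM in the 6 scrambled libraries. The 47 NF-kappa-B and inflammatory genes had a median of 0.87 in the scrambled arm and 1.77 in the MIR29B arm. Of 11633 genes, 0 differed between the arms (0%) with 973 at an unadjusted p under 0.05, and 0 between the doses (0%) with 847, by edgeR. DESeq2 and limma voom also gave 0 for both. Among genes with an established symbol and a mean of at least 5 CPM, the smallest p-values for the arms belonged to Itprip, Nfam1 and Trem1. Those for the doses belonged to Ubl3, Gsto1 and Ndufs5. The edgeR adjusted p were 0.567 for the arms and 0.679 for the doses.

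**Figure D4:**
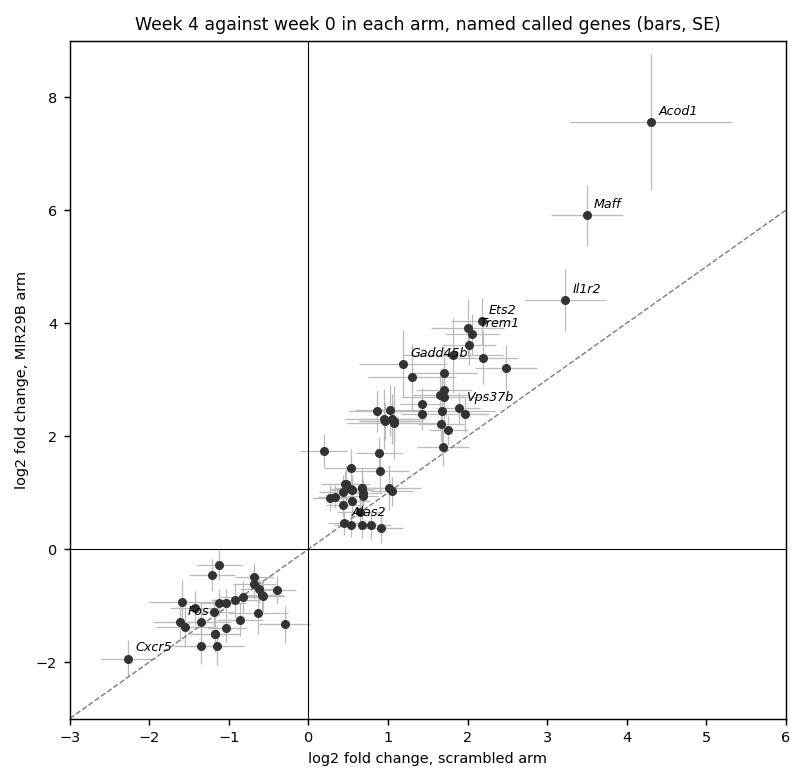
Log2 fold change of week 4 against week 0 in the MIR29B arm (vertical axis) and the scrambled arm (horizontal axis) for the named genes that passed the test over both arms; bars are standard errors and the dashed line marks equal change. Each point has the same sign in both arms, and Maff (3.50 and 5.91) lies above the line, a difference that did not pass the test.

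Week 2 was measured in the same 4 groups. The week 2 and week 4 comparisons share the week 0 libraries, so their values are given side by side only. Plaur stood at 2.13 on the log2 scale against week 0 at week 2 and at 2.18 at week 4, Trem1 at 2.41 and 2.92, Cxcr5 at -1.79 and -2.10, and Ifi47 at -1.22 and -1.22. Between weeks 2 and 4, tested directly over the 36 libraries, edgeR called 97 of 11953 genes (0.812%), 52 higher and 45 lower at week 4. That count rested on single libraries: it ran from 24 without week 2 2 mg/kg MIR29B replicate 3 to 658 without week 2 2 mg/kg scrambled replicate 1, and moved by more than 1.5 times in 24 of 36 such fits.

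Skil, a repressor of SMAD signalling at chromosome 3, 31095058 to 31122577, was among those higher at week 4. It lay at 3.36, 7.54 and 9.98 CPM at week 0, 1.97, 9.37 and 29.1 CPM at week 2 and 17.4, 24.4 and 53.4 CPM at week 4. All week 4 libraries were above all week 0 libraries, and the log2 fold change from week 2 was 1.56 (edgeR adjusted p = 0.00942). Rgs1 was also higher at week 4 than at week 2 (1.20, edgeR adjusted p = 0.00617). The zinc finger genes Zfp62 and Zfp758 and the nucleosome-binding gene Hmgn5 had log2 fold changes against week 0 of -1.33, -1.61 and -1.29 at week 2 and of 0.07, -0.13 and 0.00 at week 4. Fdps, an enzyme of sterol synthesis, and Psmb5, a proteasome subunit, were lower at week 4 than at week 2. Their week 2 levels had medians of 10.7 and 20.1 CPM and maxima of 112 and 223 CPM. Both maxima were in the same library, week 2 3 mg/kg scrambled replicate 1. H13 and Psmd13 also had their week 2 maxima there, at 216 and 185 CPM. That library had the lowest transcript length index of the 36 (-1.162), and its part in these values was not tested.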

How the data were processed

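Blood RNA libraries of the 12 week 0 and 12 week 4 samples were compared. The authors deposited raw counts per RefSeq transcript, made with featureCounts 1.5.0-p3, HISAT2 2.0.5 and GRCm38 among the names in the submitters' processing notes, whose roles are not given there. Every one of the deposited counts is even, so counts may stand for read mates. Of 25856 transcripts, 25650 took a symbol from RefSeq and 132 from GENCODE, and the transcript with the most counts stood for each of 16812 genes, unnamed transcripts included. The 74 without a symbol, 1.64% to 5.53% of counts, were tested under their transcript IDs. Genes passed edgeR's filterByExpr (minimum count 10, minimum total 15) and were tested with edgeR 4.0.16 (TMM, robust quasi-likelihood F test, arm and dose as covariates) in R 4.3.3, adjusted by Benjamini-Hochberg over all genes at 0.05. SE is the absolute log2 fold change over the square root of F. DESeq2 1.42.0 and limma 3.58.1 served as alternatives, and library measures had permutation tests with 100000 resamples. Depth was 17.87 to 41.31 M (mega) counts, and the biological coefficient of variation was 0.443. The script was tested on simulated data.

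Named genes with at least 5 CPM were the 8 largest rises and falls, the 6 smallest p-values in each direction, and up to 3 called members per list and direction. For differences between arms, doses or weeks 2 and 4 they were the 4 largest or, with none called, the 3 smallest p-values. Dnmt3a, Dnmt3b, Dnmt1, Tet2, Tet3, Bcl11a, Myb, Klf1, Gata1, Zbtb7a and Alas2 were always named, and genes outside the rule are marked in the text. The comparison, members and lists were chosen with earlier results of these data known. The lists not described in the report were MHC class II genes (0 of 15 called), dendritic cell markers (Cd8a fell, of 15) and stem and progenitor markers (Ly6a fell, of 6). The result for 1 gene is not reported here.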

Additional observations from a re-analysis of the deposited data

How the results depend on the processing

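Leaving out each library in turn gave 831 to 1186 genes between weeks 0 and 4, and RLE and upper quartile scaling, DESeq2, limma voom, both filters and the 4 strata stayed within 1.5 times of 1078. Fits on part of the libraries gave 104 in the scrambled arm alone, 459 in the MIR29B arm alone, 192 at 2 mg/kg and 257 at 3 mg/kg. What set these counts apart was not tested. The length index as a term gave 1800 and the neutrophil marker level 206, and the cause was not tested. Counts of 0 for arms and doses stayed 0 under each alternative run. For week 4 against week 2, DESeq2 gave 571, limma voom 231 and a filter of 1 CPM in 12 libraries 165, and leaving out 1 library gave 24 to 658. The cause was not tested. S100a8 reversed to -0.02 with the neutrophil term, whose sum includes it. The difference in total counts ran from 5.41 to 7.28 M counts and that in the Alas2 share from 1.69 to 2.18 percentage points without 1 library. Of 83 named genes called, 69 passed in every fit without 1 library and 48 lost their call with the neutrophil term.

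With the replicate number as a block, 1050 genes were called between weeks 0 and 4 and 36 between weeks 2 and 4. Alas2, Rsad2 and Ulk1 lost their calls under the block, and 15 neutrophil markers rose in place of 7. The numbers were not taken as pairs, because the labels do not say what they mark and not every pair's correlation was over 0.1: correlations of same-numbered deviations ran from -0.0498 to 0.403, 8 of 12 were over 0.1, 10 of 12 correlated best with their own number (a hint from the data, not the design), and 3 of 12 pairs differed in Y-linked reads.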
